A study of Arabidopsis thaliana with 8 samples.

Results

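The plastid genome of Arabidopsis thaliana encodes a set of subunits of the NDH complex, and the transcripts of 10 of these ndh genes were followed in seed before and after imbibition. The members are the genes ndhA, ndhC, ndhD, ndhE, ndhF, ndhG, ndhH, ndhI, ndhJ and ndhK, each taken where a probe set of the array names that gene alone. They are 10 of 13356 genes with a single-gene probe set, and 59 other plastid-encoded genes are measured in the same way. Each member has 1 probe set. A further plastid gene, ndhB, shares its probe set with its second copy in the inverted repeat, so it lies outside the members and its values are given separately.

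All material was seed of the Col-0 accession, a laboratory strain, hybridised as total RNA to 8 single-colour arrays, 2 for each of 4 groups. One group was untreated dry seed. The other groups had taken up liquid for 24 h, either plain water or a solution of abscisic acid (ABA) at 3 µM or at 30 µM. ABA is a plant hormone that keeps seed dormant and delays germination. The labels do not say whether the arrays of a group, called A and B here after their titles, came from separate seed batches, so a p-value here reflects only how far these arrays scatter, and that scatter may be technical. The 3 µM arrays carry the title numbers 3 and 5, whereas the arrays of each other group share 1 number. Light, temperature and seed age are not given in the sources used here.

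The NDH complex sits in the thylakoid membrane, accepts electrons from ferredoxin and reduces plastoquinone. It takes part in cyclic electron flow around photosystem I and in chlororespiration, and it is a relative of the respiratory complex I of mitochondria. Its peripheral arm holds NdhH, NdhI, NdhJ and NdhK, its membrane arm holds NdhA to NdhG, and the remaining subunits are encoded in the nucleus and imported.

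The values are array signals on a linear scale, scaled to a common trimmed mean, and a signal can be compared between arrays for 1 gene but not between genes. Changes are differences of log2(signal + 3.99), each with its standard error (SE), and they understate the change of dim probe sets. The test was limma across all 15922 probe sets that passed a filter on low values, and "called" means a Benjamini-Hochberg adjusted p under 0.05. The correlation of log2 signals over these probe sets was 0.969 to 0.983 within groups, 0.964 to 0.983 between imbibed groups and 0.583 to 0.703 between dry and imbibed arrays. Of 12 seed marker genes only OLEO3, an oleosin of seed oil bodies, had a named probe set, at signals of 199 to 919 on all arrays. No leaf marker of 3 had a named probe set, and the root marker EXPA7 and a pollen marker, AT5G07430, were too dim to pass the filter. Since whole seed was measured, fewer cells or plastids and less RNA in each cannot be told apart.

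Of the 10 members, 9 passed the filter on low values, and ndhF did not. The filter asked for a mean log2 value above 3.52 over all arrays. The dimmest member inside it was ndhJ, at a mean of 4.18, and ndhF lay just outside, at 3.51. The plot of signals on each array shows all 10.

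**Figure D1:**
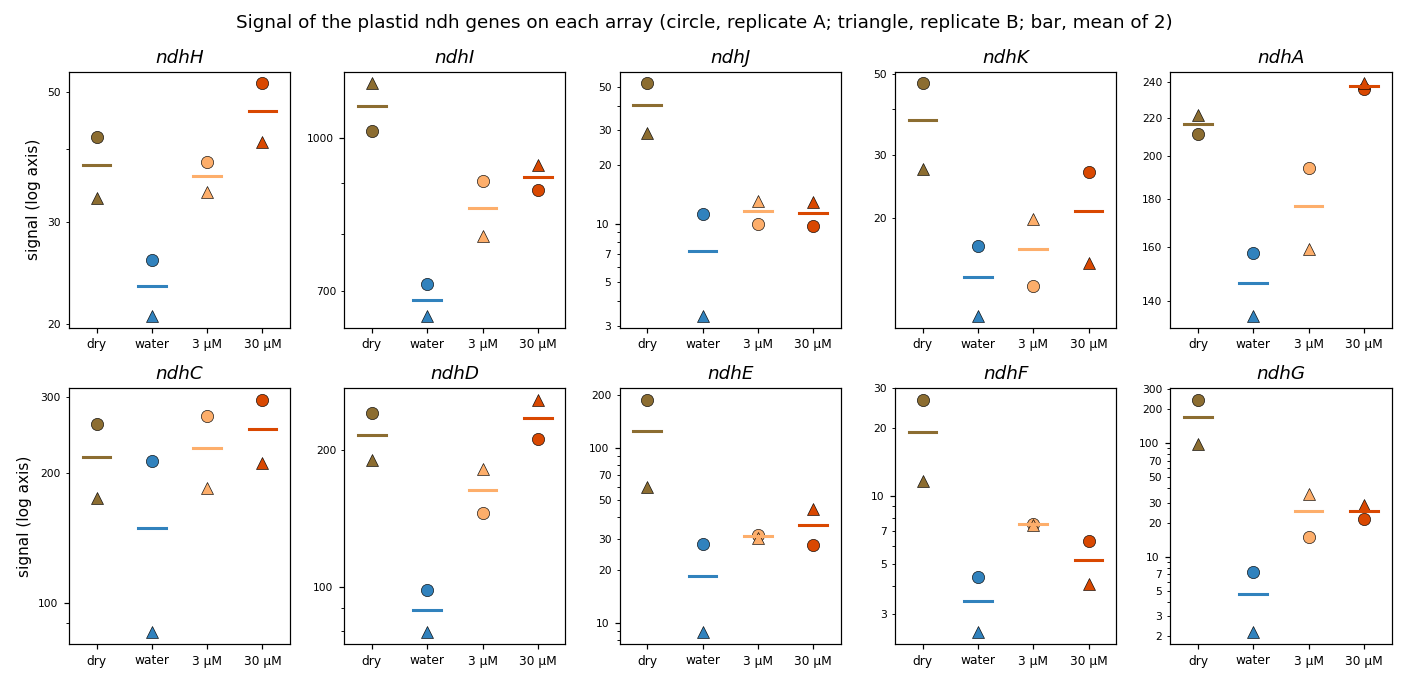
Signal of each of the 10 ndh genes on each array, on a log axis that differs between panels, by group from dry seed to 30 µM ABA; circles are replicate A, triangles replicate B and bars the mean of 2 arrays. On the deposited scaling plotted here the water group has the lowest mean in all 10 panels (under spike-in scaling ndhA, ndhC, ndhH and ndhI were higher in water than in dry seed), and its replicate B is the lowest array in each.

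Seed imbibed in water had lower ndh signals than dry seed. Of the 9 tested members, 8 were called lower and none higher, where 28.5% of all probe sets were called lower and 37.5% higher. The median change of the 9 members was -1.19, beside 0.15 for all probe sets tested. The size differed widely between members, with ndhG, ndhE and ndhJ at the large end and ndhA, ndhH and ndhI at the small end. The arrays of both groups were apart, with water below dry seed, for 8 of 9 members, against 36.6% of all probe sets. These directions hold on the deposited scaling. Scaling to the spike-in controls shifted the median over all probe sets to 0.97. With it the changes of ndhA, ndhI, ndhC and ndhH turned to 0.37, 0.29, 0.28 and 0.23. The spike-in controls themselves varied within groups. Their geometric mean on arrays A and B was 268 and 279 (dry), 125 and 161 (water), 96.1 and 142 (3 µM ABA), 147 and 186 (30 µM ABA). Whether these controls track the amount of messenger RNA was not tested. Relative to the median of all probe sets, the ndh median lay between -1.43 and -0.80 on the log2 scale under every setting that kept all arrays. The seed marker OLEO3 had signals of 207 and 199 in water, against 919 and 618 in dry seed, and fell by 1.87 ± 0.22 (limma adjusted p = 3.26e-05). The 3' to 5' signal ratio of control transcripts reflects how intact the RNA was, and 2 sets of control probe sets gave different orders. In the first set it was 0.927 and 0.371 in water, against 1.81 and 1.69 in dry seed, for GAPDH, and 2.94 and 3.80 in water, against 4.34 and 4.52 in dry seed, for actin. In the second set it was 1.31 and 1.05 in water, against 1.11 and 0.892 in dry seed, for GAPDH, and 1.27 and 1.10 in water, against 1.05 and 0.895 in dry seed, for actin. Their part in the ndh values was not tested.

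In the peripheral arm, ndhJ, whose product is a small hydrophilic subunit, had signals of 11.2 and 3.36 in water, against 52.2 and 29.3 in dry seed. It fell by 2.03 ± 0.40 on the log2 scale (limma adjusted p = 0.00105). The gene for the iron-sulfur subunit NdhK had signals of 16.8 and 10.8 in water, against 47.1 and 27.4 in dry seed, and fell by 1.19 ± 0.35 (limma adjusted p = 0.0126). For both genes each water array lay below each dry array, although the dry arrays themselves differed by a ratio of 1.78 for ndhJ and 1.72 for ndhK.

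NdhI carries the iron-sulfur clusters that pass electrons toward the quinone site. Its gene had signals of 711 and 660 in water, against 1018 and 1136 in dry seed, and fell by 0.65 ± 0.16 on the log2 scale (limma adjusted p = 0.00497). NdhH is the relative of the large catalytic subunit of complex I. The ndhH signals were 25.8 and 20.7 in water, against 41.9 and 33.0 in dry seed, a fall of 0.60 ± 0.23 (limma adjusted p = 0.0395). Both pairs of water arrays lay below both dry arrays, but the ndhH call was held under only 10 of 18 alternative settings, whereas the ndhI call was held under 17 of 18.

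In the membrane arm, ndhG showed the largest change of the 9 tested members. Its signals were 7.35 and 2.18 in water, against 241 and 97.4 in dry seed, and it fell by 4.24 ± 0.47 on the log2 scale (limma adjusted p = 2.06e-05). NdhG is a small hydrophobic subunit. The water signals lie near the pseudocount of 3.99, so the size of this change depends on that constant, and it was -4.90 with a pseudocount of 1 and -3.05 with a pseudocount of 16. The gene of another small membrane subunit, ndhE, had signals of 28.3 and 8.85 in water, against 188 and 59.9 in dry seed, and fell by 2.44 ± 0.52 (limma adjusted p = 0.00174). The replicates of ndhE differed widely within both groups, with a ratio of A to B of 3.20 in water and 3.14 in dry seed, and the groups were nevertheless apart.

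NdhD is one of the antiporter-like subunits of the membrane arm, which are thought to move protons. The ndhD signals were 98.3 and 79.5 in water, against 242 and 191 in dry seed, a fall of 1.24 ± 0.20 on the log2 scale (limma adjusted p = 0.000284). NdhA lies where the membrane arm meets the peripheral arm, and ndhA had signals of 158 and 135 in water, against 211 and 222 in dry seed. It fell by 0.56 ± 0.17 (limma adjusted p = 0.0129), with both water arrays below both dry arrays.

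The remaining small membrane subunit gene, ndhC, was the tested member that was not called. Its signals were 213 and 85.7 in water, against 261 and 176 in dry seed, so water replicate A lay between the dry arrays. The change was -0.64 ± 0.38 on the log2 scale (limma adjusted p = 0.158), with a 95% interval of -1.48 to 0.20, which includes changes as large as those of ndhA, ndhH and ndhI. It was called with arrays scaled to a common median (-1.20, limma adjusted p = 0.0172) and without water replicate A (-1.28, limma adjusted p = 0.00766), and without water replicate B the change was -0.0052. The other antiporter-like gene, ndhF, had signals of 4.39 and 2.50 in water, against 26.7 and 11.7 in dry seed, with the groups apart. In a fit without the filter its change was -1.57 ± 0.38 (limma adjusted p = 0.00715).

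**Figure D2:**
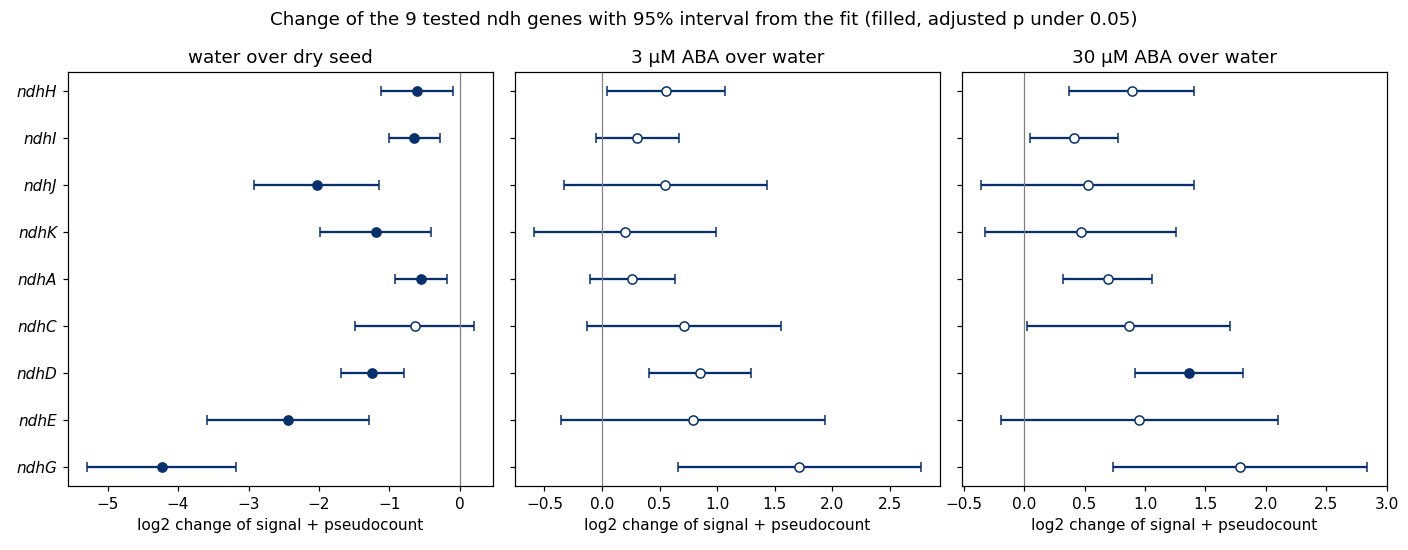
Change of the 9 tested ndh genes on the log2(signal + pseudocount) scale in water over dry seed, 3 µM ABA over water and 30 µM ABA over water, with 95% intervals from the fit; filled points have an adjusted p under 0.05. The 8 filled points in water over dry seed all lie below 0 on the deposited scaling. Under spike-in scaling the changes of ndhA, ndhH and ndhI, filled here, and of ndhC, open here, turn positive. In 30 µM ABA over water ndhD is the filled point.

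Seed imbibed in 30 µM ABA had higher ndh signals than seed imbibed in water for the same time, but the test called this for ndhD alone. The 1 call in 9 tested members stands beside 0.415% of all probe sets called higher and 0.0377% called lower. The median change of the 9 members was 0.86, beside 0.016 for all probe sets, and all 9 estimates were above 0, beside 52.5% of all probe sets. None of the 9 estimates fell below 0 under any alternative setting. The arrays in 30 µM ABA lay above those in water for 5 members, namely ndhH, ndhA, ndhI, ndhG and ndhD, where 22.3% of all probe sets did so. At an unadjusted p under 0.05, 6 members were higher, against 5.31% of all probe sets.

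The ndhD signals were 212 and 258 in 30 µM ABA, against 98.3 and 79.5 in water, a rise of 1.36 ± 0.20 on the log2 scale (limma adjusted p = 0.0273). Mean signals were 235 ± 32.9 in 30 µM ABA and 88.9 ± 13.3 in water (SD, n = 2 each), a ratio of 2.64. Leaving out any 1 of the 4 arrays in this comparison gave changes of 1.22 to 1.51. With 1 array left in a group the call could not be judged. Without the filter on low values the adjusted p was 0.0593, with spike-in scaling 0.0684 and without an intensity trend 0.114.

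For ndhG the signals were 21.5 and 28.7 in 30 µM ABA, against 7.35 and 2.18 in water, and the change was 1.79 ± 0.47 (limma adjusted p = 0.203). The arrays did not overlap, yet both groups lay far below the dry arrays. The ndhH signals were 51.7 and 41.1 in 30 µM ABA, against 25.8 and 20.7 in water, a change of 0.89 ± 0.23 (limma adjusted p = 0.188). For ndhA the signals were 236 and 239 in 30 µM ABA, against 158 and 135 in water, with a change of 0.69 ± 0.17 (limma adjusted p = 0.142). The arrays were apart for these 3 genes, and the adjustment over all probe sets left them uncalled. Under spike-in scaling the call fell on ndhG in place of ndhD, at 1.64 (limma adjusted p = 0.00399). The p-values of that setting are not directly comparable with those of the main fit. For ndhG in water over dry seed it gave -3.39 (limma adjusted p = 2.83e-17), where the main fit gave -4.24 (limma adjusted p = 2.06e-05). The cause was not tested.

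The ndhI signals were 886 and 939 in 30 µM ABA, against 711 and 660 in water, and the change was 0.41 ± 0.16 (limma adjusted p = 0.499). For ndhE the signals were 28.0 and 44.6 in 30 µM ABA, against 28.3 and 8.85 in water, a change of 0.95 ± 0.52 with an interval of -0.19 to 2.10. The ndhC signals were 296 and 211 in 30 µM ABA, against 213 and 85.7 in water, a change of 0.86 ± 0.38 with an interval of 0.024 to 1.70. The ndhI arrays were apart, while those of ndhE and ndhC overlapped through water replicate A.

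For ndhK, ndhJ and ndhF the arrays in 30 µM ABA overlapped those in water. The ndhK signals were 26.9 and 15.1 in 30 µM ABA, against 16.8 and 10.8 in water, and the change was 0.47 ± 0.35 (limma adjusted p = 0.840). For ndhJ the signals were 9.67 and 12.9 in 30 µM ABA, against 11.2 and 3.36 in water, a change of 0.52 ± 0.40 (limma adjusted p = 0.840). The untested ndhF had signals of 6.30 and 4.10 in 30 µM ABA, against 4.39 and 2.50 in water.

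Water replicate B was the lowest of all 8 arrays for all 10 members, and water replicate A exceeded it by a ratio of 1.08 for ndhI to 3.37 for ndhG. Without water replicate B, the median change in 30 µM ABA over water was 0.32, and without water replicate A it was 1.04. Both medians are over 10 members, with ndhF, and calls were not judged with 1 water array left. The 3' to 5' ratio of actin was 2.69 and 2.30 in 30 µM ABA, against 2.94 and 3.80 in water, in the first control set, and 1.13 and 1.18 against 1.27 and 1.10 in the second. For GAPDH it was 0.556 and 0.520 in 30 µM ABA, against 0.927 and 0.371 in water, in the first set, and 0.956 and 0.974 against 1.31 and 1.05 in the second. The groups were apart in the first actin and second GAPDH sets and overlapped in the other two. The seed marker OLEO3 had signals of 325 and 463 in 30 µM ABA, against 207 and 199 in water, a change of 0.92 ± 0.22 (limma adjusted p = 0.145). Whether any of these moves the ndh values was not tested.

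At 3 µM ABA all 9 tested members again had higher estimates than in water, beside 54.7% of all probe sets, and limma called none of them, as it called 0% of all probe sets. At an unadjusted p under 0.05, 3 members were higher, namely ndhH, ndhG and ndhD, where 2.96% of all probe sets were. The median change was 0.55, beside 0.025 for all probe sets, and 6 members had both 3 µM arrays above both water arrays, against 18.2% of all probe sets. Both doses were compared with the same water arrays, so their changes are not independent.

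The ndhD signals were 146 and 182 in 3 µM ABA, against 98.3 and 79.5 in water, a change of 0.85 ± 0.20 with a lower 95% bound of 0.41. For ndhG the signals were 14.9 and 35.6 in 3 µM ABA, against 7.35 and 2.18 in water, a change of 1.71 ± 0.47 with an interval of 0.66 to 2.76. The ndhH signals were 38.0 and 33.8 in 3 µM ABA, against 25.8 and 20.7 in water, a change of 0.55 ± 0.23 with an interval of 0.041 to 1.07. The limma adjusted p of all 9 members was 0.999 here. Under spike-in scaling ndhG was called, at 1.99 (limma adjusted p = 0.00251).

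The other members had intervals that include 0 in this comparison. The arrays were apart for ndhA, at 194 and 159 in 3 µM ABA, against 158 and 135 in water, for ndhI, at 905 and 796 against 711 and 660, and for ndhE, at 31.7 and 30.7 against 28.3 and 8.85. They overlapped for ndhC, at 272 and 185 in 3 µM ABA, against 213 and 85.7 in water, for ndhK, at 13.0 and 19.9 against 16.8 and 10.8, and for ndhJ, at 9.99 and 13.1 against 11.2 and 3.36. The untested ndhF had 7.55 and 7.47 in 3 µM ABA, against 4.39 and 2.50 in water, without overlap. Leaving out water replicate B brought the median change to 0.20, and leaving out water replicate A brought it to 0.91, both over 10 members with ndhF.

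Between 30 µM and 3 µM ABA limma called none of the 9 members, nor any of the 15922 probe sets, with 2 members (ndhA and ndhD) at an unadjusted p under 0.05 against 2.19% of all probe sets. The median was 0.16 beside -0.018 for all probe sets, and the estimate was above 0 for 8 of 9 members, beside 46.5% of all probe sets above 0. Under scaling to the spike-in controls, which gave -0.49 for all probe sets, the ndh median turned to -0.29. The arrays in 30 µM ABA lay above those in 3 µM ABA for 3 members, ndhH, ndhA and ndhD, against 14.7% of all probe sets. For ndhA the change was 0.43 ± 0.17, with an interval of 0.056 to 0.79, and for ndhD it was 0.51 ± 0.20, with an interval of 0.068 to 0.96. The interval for ndhG ran from -0.98 to 1.13 and that for ndhE from -0.98 to 1.31, so for these genes a rise of 1 on the log2 scale between the doses lies inside the interval.

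On the deposited scaling, some members were called lower in ABA than in dry seed, in 30 µM ABA at a share near that of all probe sets. In 30 µM ABA 3 of 9 members were called lower, beside 26.0% of all probe sets, namely ndhG at -2.45 ± 0.47 (limma adjusted p = 0.0011), ndhE at -1.49 ± 0.52 (limma adjusted p = 0.0277) and ndhJ at -1.51 ± 0.40 (limma adjusted p = 0.00696). In 3 µM ABA 4 of 9 members were called lower, beside 26.7% of all probe sets, the same 3 genes and ndhK at -0.99 ± 0.35 (limma adjusted p = 0.0305). Without the filter on low values, ndhE in 30 µM ABA (limma adjusted p = 0.0516) and ndhK in 3 µM ABA (limma adjusted p = 0.0607) were not called. The median change from dry seed was -0.24 in 30 µM ABA and -0.39 in 3 µM ABA, beside 0.17 and 0.24 for all probe sets. Without dry replicate A, 1 member was called in each of these comparisons, ndhG. Under spike-in scaling the medians turned to 0.48 in 30 µM ABA and 0.81 in 3 µM ABA, beside 0.79 and 1.31 for all probe sets. With that scaling 4 members were called higher and 1 lower in 30 µM ABA, where 83.0% of 9344 calls over all probe sets were higher. In 3 µM ABA 5 members were called higher and 1 lower, where 90.2% of 11791 calls were higher. The member called lower was ndhG in both, while ndhE (limma adjusted p = 0.0544 at 30 µM, 0.206 at 3 µM) and ndhJ (0.0571 at 30 µM, 0.302 at 3 µM) were not called. The comparisons with dry seed share the dry arrays.

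The other 6 members were not called in 30 µM ABA over dry seed. The change of ndhH was 0.28, with an interval of -0.23 to 0.80, that of ndhA 0.13, with an interval of -0.23 to 0.50, and that of ndhD 0.12, with an interval of -0.32 to 0.57. With all arrays scaled to a common median, these 3 changes turned to -0.31, -0.50 and -0.51. Under spike-in scaling they went the other way and were called, with ndhH at 0.92 (limma adjusted p = 0.0287), ndhA at 0.84 (limma adjusted p = 0.0289) and ndhD at 0.83 (limma adjusted p = 0.0314), as was ndhC at 0.93 (limma adjusted p = 0.0152). The mean signal was lowest in water for all 10 members on the deposited scaling. It was highest in dry seed for 6 members, ndhI, ndhG, ndhE, ndhK, ndhJ and ndhF, and in 30 µM ABA for ndhH, ndhA, ndhD and ndhC. The arrays of the group next above water were apart from the water arrays for 6 members, and the arrays of the middle groups in this order overlapped for 7.

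Neighbouring genes were set side by side, because plastid genes are read in shared transcription units. In the reference annotation ndhJ, ndhK and ndhC follow each other, and ndhH, ndhA, ndhI, ndhG, ndhE, psaC and ndhD form a second row, in which psaC, for an iron-sulfur subunit of photosystem I, stands between ndhE and ndhD. The fall in water relative to dry seed was uneven along this second row. From ndhH to ndhI the changes lay between -0.65 and -0.56 on the log2 scale, at ndhG the change was -4.24, and beyond it the changes were -2.44 for ndhE, -1.76 for psaC and -1.24 for ndhD. The 95% interval of ndhG, -5.29 to -3.18, does not meet that of its neighbour ndhI, -1.01 to -0.29. It does meet that of its other neighbour ndhE, which reaches down to -3.59. Differences between genes were not tested, and genes of low signal are more affected by the pseudocount.

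The signals of psaC were 14.8 and 26.9 in water, against 95.5 and 62.8 in dry seed, a fall of 1.76 ± 0.30 (limma adjusted p = 0.000429). In 30 µM ABA they were 72.7 and 61.7, against 14.8 and 26.9 in water, a change of 1.56 ± 0.30 (limma adjusted p = 0.0646). Its estimate lay between those of ndhE and ndhD in water over dry seed and above both in 30 µM ABA over water. Its lowest array was water replicate A, unlike any ndh gene. In the row of ndhC, ndhK and ndhJ the falls in water were not even either, with estimates of -0.64, -1.19 and -2.03, and none of the 3 had its 30 µM arrays apart from the water arrays.

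**Figure D3:**
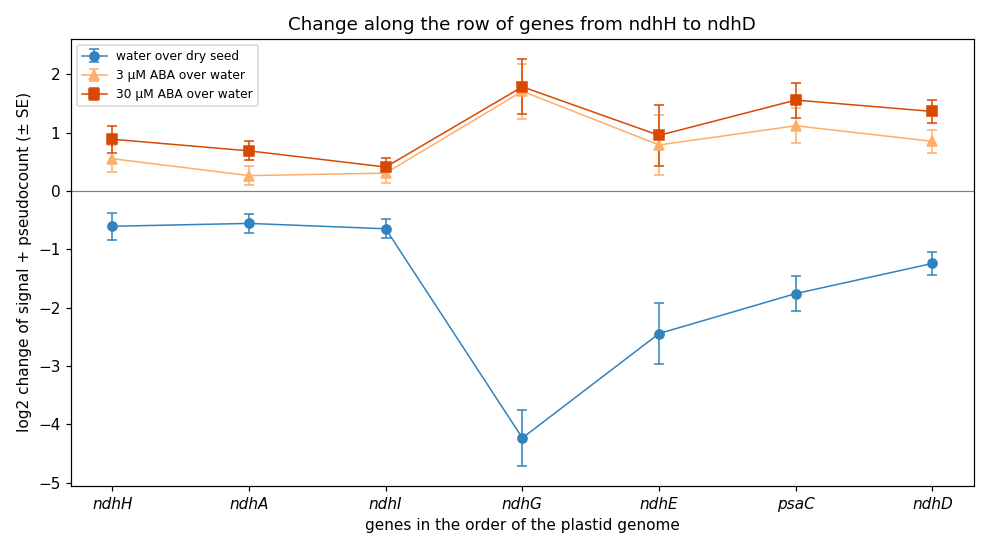
Change on the log2(signal + pseudocount) scale, with the SE from the fit, of the genes from ndhH to ndhD in genome order, in water over dry seed (circles), 3 µM ABA over water (triangles) and 30 µM ABA over water (squares). The change in water over dry seed is near -0.6 at the left of the row on the deposited scaling (there ndhH, ndhA and ndhI turn positive under spike-in scaling), and -4.24 at ndhG.

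The ndhB probe set, which reads both copies of this antiporter-like gene, had signals of 22.5 and 8.61 in water, against 131 and 95.5 in dry seed. It fell by 2.67 ± 0.33 (limma adjusted p = 4.52e-05). Its signals in 30 µM ABA were 22.5 and 23.4, against 22.5 and 8.61 in water, a change of 0.56 ± 0.33 (limma adjusted p = 0.741). Water replicate B was again the lowest array.

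Other plastid genes moved in part with the ndh genes. On the deposited scaling, 26 of the 59 others were called lower in water relative to dry seed and 3 higher. The shares called over all probe sets were 28.5% lower and 37.5% higher. Estimates lay below 0 for 40 of the 59 genes, and their median change was -0.53, beside -1.19 for the ndh genes and 0.15 for all probe sets. Genes of the photosystems and the cytochrome b6f complex had 18 of 26 called lower and a median of -0.78. Of the 15 ribosomal protein genes, 2 were called lower and 1 higher, with a median of 0.08, and of the 4 RNA polymerase genes 1 was called higher and none lower, with a median of 0.30. The 6 ATP synthase genes had 2 called lower and a median of 0.24. The 59 genes had a median of 0.65 in 30 µM ABA over water, beside 0.86 for the ndh genes, with 9 called higher and 58 of 59 estimates above 0. Of all probe sets, 0.415% were called higher and 52.5% had estimates above 0, with a median of 0.016. Estimates above 0 were found for all 26 photosystem and cytochrome b6f genes, all 6 ATP synthase genes, all 4 RNA polymerase genes and all 15 ribosomal protein genes. The medians of these lists were 0.58, 1.06, 0.63 and 0.49 in the same order, beside 0.86 for the ndh genes. In that order 3, 2, 1 and 2 genes were called higher. The arrays in 30 µM ABA lay above those in water for 46 of the 59 genes. That held for 5 of 9 ndh genes and 22.3% of all probe sets. In 3 µM ABA over water 56 of the 59 estimates were above 0, beside 54.7% of all probe sets. The median was 0.50, beside 0.55 for the ndh genes. Whether the ndh genes differ from the other plastid genes was not tested.

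**Figure D4:**
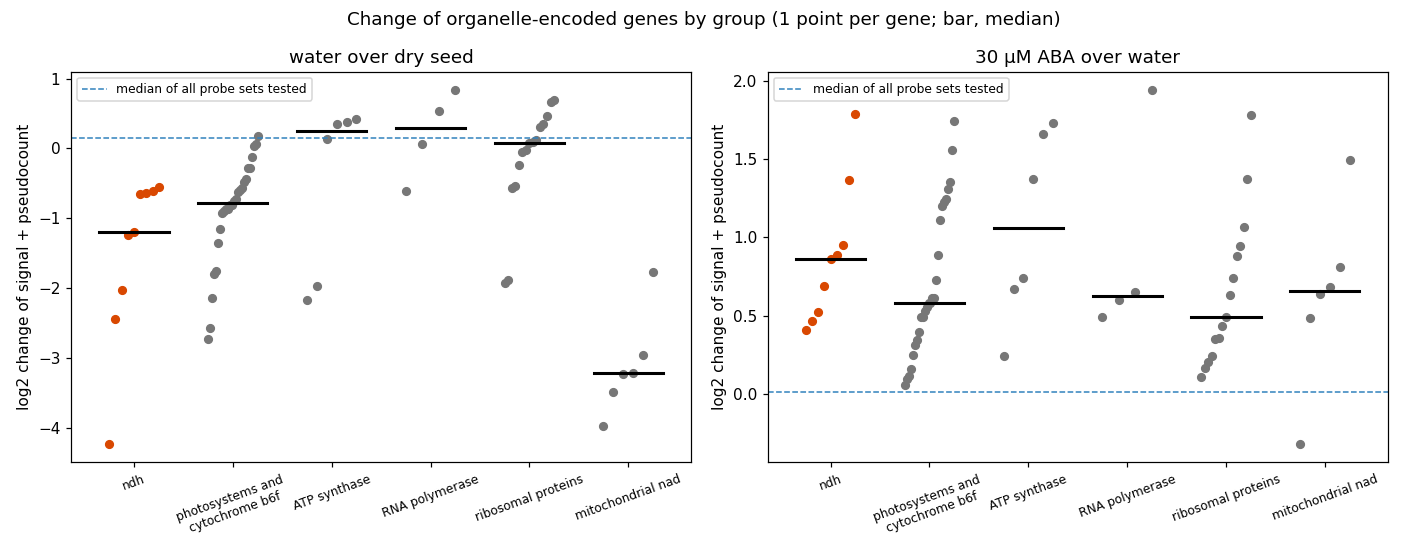
Change of each tested organelle-encoded gene (points) and the median of each group (bars) on the log2(signal + pseudocount) scale, in water over dry seed at the left and 30 µM ABA over water at the right; the dashed line is the median of all probe sets. On the deposited scaling the ndh median lies at -1.19 and 0.86 in these contrasts (ndhA, ndhC, ndhH and ndhI turn positive in the first under spike-in scaling), and the mitochondrial nad genes at -3.22 and 0.66.

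The mitochondrial nad genes encode the respiratory relatives of the Ndh subunits. All 6 of the 8 measured nad genes that passed the filter were called lower in water relative to dry seed, beside 28.5% of all probe sets. Their median change was -3.22. The lowest adjusted p-values were those of nad5 at -3.98 (limma adjusted p = 9.68e-08) and nad9 at -3.49 (limma adjusted p = 8.13e-07). Set against its relative, ndhJ had -2.03 where nad9 had -3.49, ndhE -2.44 where nad4L had -3.22, ndhD -1.24 where nad4 had -2.96, and ndhA -0.56 where nad1 had -1.77. For ndhG the estimate was -4.24 where nad6 had -3.22. No nad gene was called by limma in 30 µM ABA over water, and the median was 0.66. At an unadjusted p under 0.05, 3 of 6 were higher, beside 5.31% of all probe sets. Mitochondrial probe sets may also read nuclear copies of mitochondrial sequence.

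Few nuclear genes of the NDH complex had a named probe set, 4 of 18 subunits. In water relative to dry seed, 1 of the 4 was called higher and 1 lower, beside 37.5% and 28.5% of all probe sets. Estimates were above 0 for 3 of the 4. AT2G04039, for NdhV, a subunit on the ferredoxin-binding side of the complex, had signals of 91.1 and 71.9 in water, against 15.3 and 4.72 in dry seed, and rose by 2.71 ± 0.33 (limma adjusted p = 3.67e-05). NdhS, which forms part of the ferredoxin-binding site, had signals of 24.3 and 13.7 in water, against 95.7 and 72.2 in dry seed, and fell by 1.96 ± 0.33 (limma adjusted p = 0.000356). NdhN and NdhL, which belong to the same subcomplex as NdhH, had changes of 0.64 (limma adjusted p = 0.0531) and 0.47 (limma adjusted p = 0.340). Limma called none of the 4 in 30 µM ABA over water, and none had an unadjusted p under 0.05, with changes of -0.25 to 0.058. No gene of the list of 6 assembly factors and photosystem I linkers had a named probe set.

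The mean log2 profile of the tested ndh genes was compared with 8889 other single-gene probe sets over the 8 arrays, as a description. The 6 most alike were AT1G19230 (Pearson r = 0.982), AT5G23460 (0.976), AT1G04800 (0.966), AT2G07751 (0.964), AT2G22120 (0.961) and AT2G14800 (0.961). Over the 6 imbibed arrays alone, which leave out the gap between dry and imbibed seed, their r was 0.984, 0.944, 0.923, 0.912, 0.915 and 0.961 in the same order. None of these 6 is a plastid gene, and 5 of the 40 most alike are. The points share arrays and scaling, and the ranking was chosen from many candidates.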

How the data were processed

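RNA from 8 seed samples was measured on single-colour arrays, 2 for each of 4 groups. The authors deposited linear signal intensities, a value for each probe set on each array, made with MAS5 per the submitters' processing notes. No version is given. The 2% trimmed mean was the same on every array, so this scaling hides differences in total messenger RNA. Whether scaling to the spike-in controls recovers such differences was not tested. Detection calls were not used here, and the number of arrays limits the precision. How the RNA was primed for labelling is not given in the sources used here. Plastid transcripts carry few poly(A) tails, and the part of priming in these values was not tested.

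Of 22810 probe sets, 64 were controls. The platform's annotation gives a single gene for 13513 of them, more than one for 503, and no gene for 8730. The RefSeq gene table of TAIR10.1 matched 13436 of the single-gene probe sets and gave names and gene order. Coordinates are left out because no build is named for the array.

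A pseudocount of 3.99, the 20th percentile of all values, was added before taking log2. The filter on low values kept the 15922 probe sets whose mean log2 value exceeded the 30th percentile. All arrays entered 1 fit (limma 3.58.1, R 4.3.3) that left 4 residual degrees of freedom, an intensity trend, two-sided tests and Benjamini-Hochberg adjustment over all kept probe sets. Intervals cover 95%. The fit was tested on simulated data. A permutation test of 2 arrays against 2 could not reach 0.05 and was not used.

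The members and lists were chosen with earlier results of these data known. The text names every ndh gene, psaC, up to 6 measured genes of each other NDH list and the 6 genes most like the ndh profile. Of the nad genes it names the 2 of lowest adjusted p and the tested ones whose ndh relative was also tested. The pseudocount, the filter, the scaling, the intensity trend, a replicate block, the arrays in the fit and leaving out each array were varied.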

Additional observations from a re-analysis of the deposited data

How the results depend on the processing

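With 2 arrays a group, no array can be tested as an outlier, and a member that was not called may still differ. The comparisons with dry seed moved with the scaling, which sets their zero. Which scaling gives the truer zero was not tested, and the spike-in controls varied between arrays of the same group. Under scaling to the spike-in controls 3 members were called in water over dry seed, all lower, where 84.1% of 10364 calls over all probe sets were higher. In 30 µM ABA over dry seed 5 members were called, 4 higher and 1 lower, where 83.0% of 9344 calls were higher. In 3 µM ABA over dry seed 6 members were called, 5 higher and 1 lower, where 90.2% of 11791 calls were higher. In 30 µM and 3 µM ABA over water 1 member each was called (ndhG, higher), beside 204 and 32 of all probe sets. The ndh medians were -0.32 for water over dry seed, 0.48 and 0.81 for 30 µM and 3 µM ABA over dry seed and -0.29 for 30 µM over 3 µM. For all probe sets these medians were 0.97, 0.79, 1.31 and -0.49. Single genes changed sign under this scaling. In water over dry seed ndhA had 0.37, ndhC 0.28, ndhH 0.23 and ndhI 0.29. In 3 µM ABA over dry seed ndhA had 0.91, ndhD 0.81, ndhH 1.05, ndhI 0.88 and ndhK 0.047, and in 30 µM ABA over dry seed ndhI had 0.48. In 30 µM over 3 µM ABA ndhA had -0.068, ndhC -0.34, ndhE -0.29, ndhG -0.35, ndhH -0.13, ndhI -0.40 and ndhK -0.13. The cause was not tested.

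With a common median, 9 and 8 members were called in 3 µM and 30 µM ABA over dry seed, with medians of -1.22 and -1.09. The medians of all probe sets were then -0.33 and -0.41, and 36.6% of 10391 and 34.8% of 10437 calls were higher. The ndh median in water over dry seed was -1.75, beside -0.37 for all probe sets. For 30 µM ABA over dry seed, ndhA then had -0.50, ndhC -0.41, ndhD -0.51 and ndhH -0.31, and in 3 µM ABA over dry seed ndhC had -0.56. With quantile normalization the medians were -0.99 and -0.65 in 3 µM and 30 µM ABA over dry seed, beside -0.0040 and -0.034 for all probe sets. In the 30 µM comparison 5 members were called, where 50.7% of 9869 calls over all probe sets were higher. There ndhH had -0.17 and ndhI 0.021, and in 30 µM over 3 µM ABA ndhJ had 0.12. With the filter at the median, which tested 6 members, 1 member was called in each comparison of ABA with dry seed and 5 in water over dry seed. Over all probe sets 8372, 8211 and 8540 were called in 3 µM ABA, 30 µM ABA and water over dry seed, 56.2%, 56.9% and 55.5% of them higher. The ndh medians were 0.13 for 30 µM ABA over dry seed and -0.65 for water over dry seed, beside 0.16 and 0.15 for all probe sets. A pseudocount of 16 gave a median of -0.82 in water over dry seed. That setting, a common median, quantile normalization and the fit without the filter each tested 10 members, with ndhF. Without the filter, and without the intensity trend, 0 members were called in 30 µM ABA over water, beside 11 and 2 of all probe sets. The median of the ndh genes minus that of all probe sets stayed between 0.63 and 0.86 for 30 µM ABA over water under settings that kept all arrays.

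Leaving out each array in turn leaves 1 array in a group, so only changes are given. The ndh medians were -1.41 to -0.84 in water over dry seed, the last without dry replicate A. They were 0.32 to 1.04 in 30 µM ABA over water and 0.20 to 0.91 in 3 µM ABA over water. Over dry seed they were -0.63 to -0.16 in 30 µM ABA and -0.74 to -0.42 in 3 µM ABA. These fits tested 9 or 10 members, since ndhF passed the filter in some, so the medians are not all over the same genes. Where single genes changed sign, the ranges in 30 µM over 3 µM ABA were -0.12 to 0.43 for ndhC, -0.14 to 0.47 for ndhE, -0.46 to 0.61 for ndhG, -0.18 to 0.13 for ndhJ and -0.080 to 0.62 for ndhK. Those in 30 µM ABA over dry seed were -0.059 to 0.50 for ndhC and -0.046 to 0.29 for ndhD, in 3 µM ABA over dry seed -0.21 to 0.35 for ndhC and -0.21 to 0.11 for ndhH, and in 3 µM ABA over water -0.049 to 0.45 for ndhK.

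Same-lettered arrays of the groups deviated together with correlations of -0.081 to 0.31, with 0.31 for water and 3 µM ABA and 0.23 for water and 30 µM ABA. They are not over 0.1 for every pair, so the letters were not taken to pair the samples, and a batch shared by some of them was not tested. A fit with the letter as a replicate block called 9 members in water over dry seed, adding ndhC (limma adjusted p = 0.0195), and 1, 0 and 0 in 30 µM over water, 3 µM over water and 30 µM over 3 µM ABA. It called 3 and 4 in 30 µM and 3 µM ABA over dry seed. Over all probe sets it called 10663 in water over dry seed, 56.7% of them higher, and 135 in 30 µM ABA over water, 84.4% of them higher. In 30 µM and 3 µM ABA over dry seed it called 10182 and 10481, 58.4% and 58.5% of them higher. The calls of ndhG, ndhE and ndhJ in water over dry seed held under every alternative that tested them. For the other gene lists, with alternatives chosen after seeing the data, the count of calls stayed within 1.5 times in 978 cases, was higher in 39 and lower in 63.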

Other observations

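Genes of the nuclear factors that process ndh transcripts were measured in part, 5 of 9 on the list. They encode pentatricopeptide repeat proteins that edit plastid RNA. In water relative to dry seed 3 of 5 were called higher and none lower, where 37.5% of all probe sets were called higher and 28.5% lower. CRR22 had signals of 40.4 and 36.6 in water, against 8.11 and 19.9 in dry seed, and rose by 1.32 ± 0.31 (limma adjusted p = 0.00342). OTP84 had signals of 22.9 and 18.5 in water, against 7.70 and 8.05 in dry seed, and rose by 1.05 ± 0.25 (limma adjusted p = 0.00384). CRR28 had signals of 38.8 and 33.1 in water, against 24.5 and 14.0 in dry seed, and rose by 0.82 ± 0.28 (limma adjusted p = 0.0237). CRR21 and OTP85 had changes of 0.10 and 0.46 and were not called. Limma called none of the 5 in 30 µM ABA over water, none had an unadjusted p under 0.05, and the median was -0.27.

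Of 3 genes of the other route of cyclic electron flow, 1 was measured. PGRL1B, a thylakoid protein of that route, had signals of 28.3 and 42.5 in water, against 56.7 and 57.2 in dry seed, and fell by 0.65 ± 0.24 (limma adjusted p = 0.0335). Its change in 30 µM ABA over water was 0.26 ± 0.24 (limma adjusted p = 0.897).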
